A study of Mus musculus with 12 samples.

Results

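The 9 genes *Otx2*, *Pou3f1*, *Zic2*, *Zic5*, *Foxd3*, *Lef1*, *Etv4*, *Etv5* and *Sox3* encode transcription factors that are used as marks of the formative and primed states of mouse pluripotent cells. They were found by symbol, from a list drawn up with earlier results of these data known, and are 9 of the 57180 genes in the files. All 9 passed the filter of 10 counts in total that left 25446 genes to test. RNA was sequenced after ribosomal RNA depletion in 12 libraries of mouse embryonic stem cells (ESCs) and of epiblast-like cells (EpiLCs), which are ESCs taken towards the post-implantation epiblast for 2 days. All libraries derive from 1 picked clone of the male E14 line. This clone carries a doxycycline-inducible CRISPR interference silencer, which guide RNAs bring to a promoter, and TetOn3G driven by the CAG promoter at *Tigre*. By the study's methods, all cell lines were kept under low oxygen. Guides were integrated with PiggyBac vectors, and every group was kept under puromycin, blasticidin and hygromycin. The study's methods give DMSO or doxycycline from seeding, and a figure legend on expression in these groups names doxycycline. The labels state no treatment. Their molecule field names polyA RNA, while the extract protocol describes the ribosomal RNA depletion given above. Neg cells carry 4 scrambled guides, and 3xKD cells carry guides to *Pcx*, *Me1* and *Me2*, the genes of pyruvate carboxylase and of the cytosolic and mitochondrial malic enzymes. The study lists 1 Neg line and 1 3xKD line, so the knockdown and other differences between these lines cannot be told apart. The effect of 3xKD below means the difference between the lines. Each of the 4 groups (Neg ESCs, 3xKD ESCs, Neg EpiLCs and 3xKD EpiLCs) has 3 libraries. ESCs were grown in N2B27 medium with LIF and with inhibitors of MEK (PD0325901) and GSK3 (CHIR99021), and EpiLCs in N2B27 with Activin A, Fgf2 and the tankyrase inhibitor XAV939. The titles set the groups, because the cell type field of the labels calls all Neg libraries ESCs and all 3xKD libraries EpiLCs.

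Naive ESCs are held by LIF, by active beta-catenin and by a block of ERK signalling, and formative cells arise once the ERK block is lifted and Fgf and Activin act. OTX2 and the POU-domain factor OCT6, the product of *Pou3f1*, come on early in that step, and OTX2 leads OCT4 to a new set of enhancers. ZIC2 and ZIC5 are zinc finger proteins of post-implantation epiblast and neural plate, FOXD3 is a forkhead protein needed by the epiblast and later by neural crest, and SOX3 belongs with SOX1 and SOX2 to the SOXB1 group. LEF1 binds DNA for beta-catenin, and ETV4 and ETV5 are ETS factors of the PEA3 group that report ERK activity. The study itself had labelled *Otx2*, *Pou3f1*, *Zic2*, *Zic5* and *Lef1* as primed genes in a plot of these same samples, so their direction here is not independent evidence.

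Library totals ran from 11221023 to 19652197 estimated counts, both extremes in Neg ESCs. *Pcx*, *Me1* and *Me2* were lower in 6 of 6 3xKD libraries than in any Neg library of that state, with log2 fold changes between -1.14 and -0.89. The study's methods describe experiments in general as done in biological triplicate, while the labels do not say how the 3 libraries of a group were kept apart, and p-values measure the spread between these libraries. The level of a gene is given below in CPM, estimated counts scaled to a common library size with TMM factors, and a change as a log2 fold change ± SE. A gene was called when the adjusted p of edgeR's quasi-likelihood test was under 0.01 and the log2 fold change was above 0.58 or below -0.58. In bulk RNA, fewer cells that express a gene and less RNA of it per cell cannot be told apart.

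In Neg cells, 8 of the 9 factors rose from ESCs to EpiLCs and none was called lower, against 9.78% of all tested genes called higher and 11.0% called lower. *Etv5* was the exception, so its label as a formative gene is not borne out by its total counts here. In 3xKD cells, 7 of the 9 rose and none was called lower, beside 9.42% and 9.32% of all genes. The median log2 fold change of the 9 was 2.15 in Neg and 1.83 in 3xKD cells, where the median of all tested genes was 0.01 in each.

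**Figure D1:**
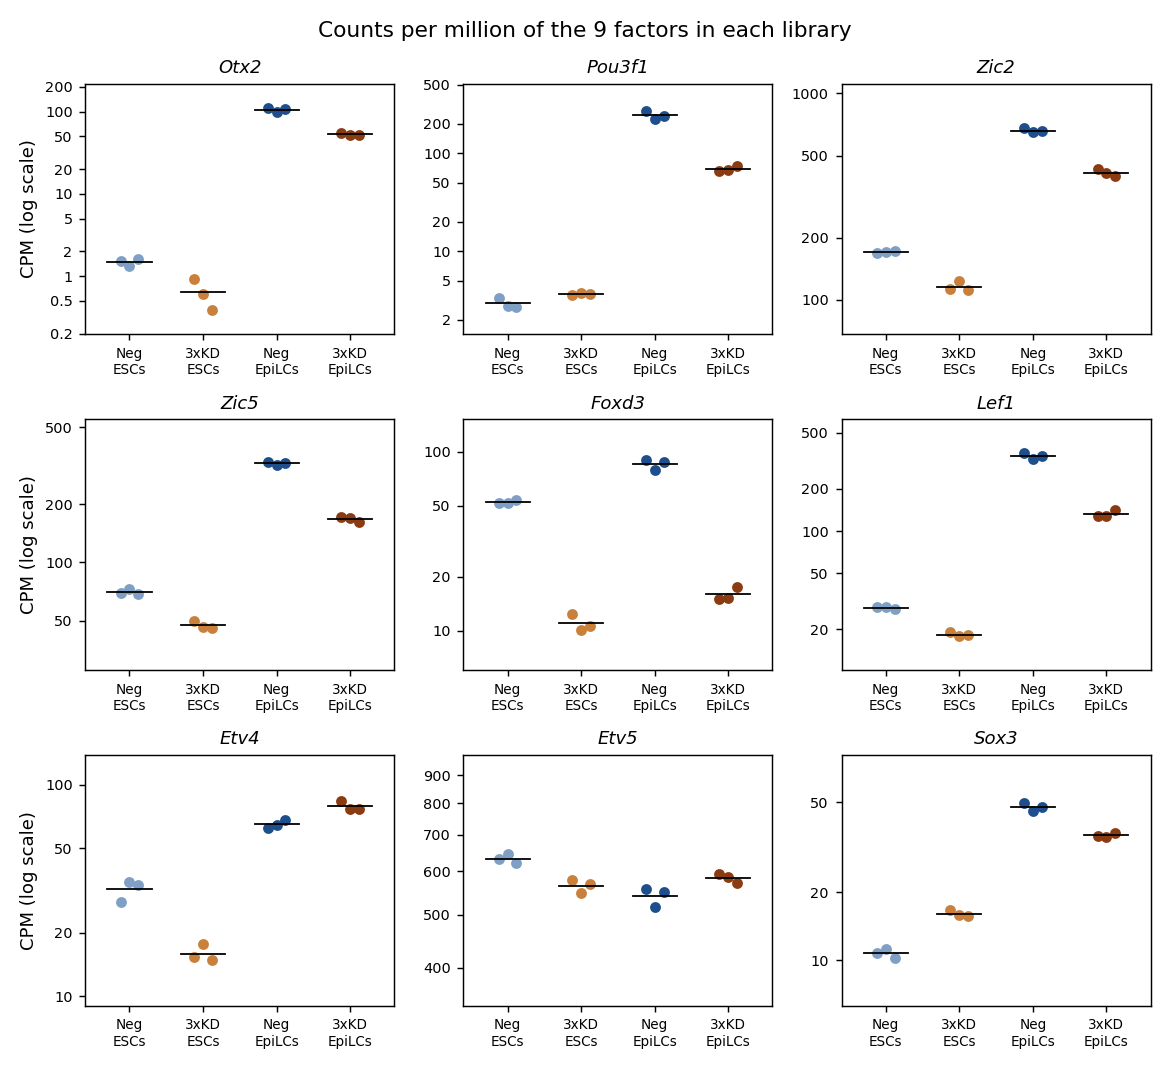
CPM of each factor (log axis, a scale of its own for each gene) in the 3 libraries of Neg ESCs, 3xKD ESCs, Neg EpiLCs and 3xKD EpiLCs. Points are libraries and lines are group means. *Otx2* and *Pou3f1* span the widest range, from a few CPM or less in ESCs to 109.7 and 271 in EpiLCs, while *Foxd3* splits by line more than by state.

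Between the lines, 3xKD EpiLCs had 6 of the 9 factors called lower and none higher, where 5.35% of all genes were called lower and 7.88% higher. The 6 were *Foxd3*, *Pou3f1*, *Lef1*, *Otx2*, *Zic5* and *Zic2*. In 3xKD ESCs, 4 factors were called lower (*Foxd3*, *Otx2*, *Etv4* and *Lef1*) and 1 higher (*Sox3*), against 6.78% and 8.50% of all genes. The median log2 fold change of the 9 was -0.57 in ESCs and -0.95 in EpiLCs, and that of all tested genes was 0.03 in each state. The values of 3xKD and Neg libraries did not overlap for 9 of the 9 factors in either state, which also held for 49.0% of all genes in ESCs and 47.2% in EpiLCs.

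The effect of 3xKD differed between the states for 6 factors when the difference itself was tested. It was lower in EpiLCs than in ESCs for *Pou3f1*, *Sox3*, *Lef1* and *Zic5* and higher for *Etv4* and *Etv5*, beside 5.27% and 4.76% of all genes. For *Otx2*, *Zic2* and *Foxd3* the difference missed the threshold, at 0.22 ± 0.24, -0.12 ± 0.06 and -0.17 ± 0.11 on the log2 scale. By construction this difference is also that between the rise in 3xKD cells and the rise in Neg cells. The 4 comparisons use the same 12 libraries, each group entering 2 of them, so the values of a factor are set side by side without a test of their likeness.

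**Figure D2:**
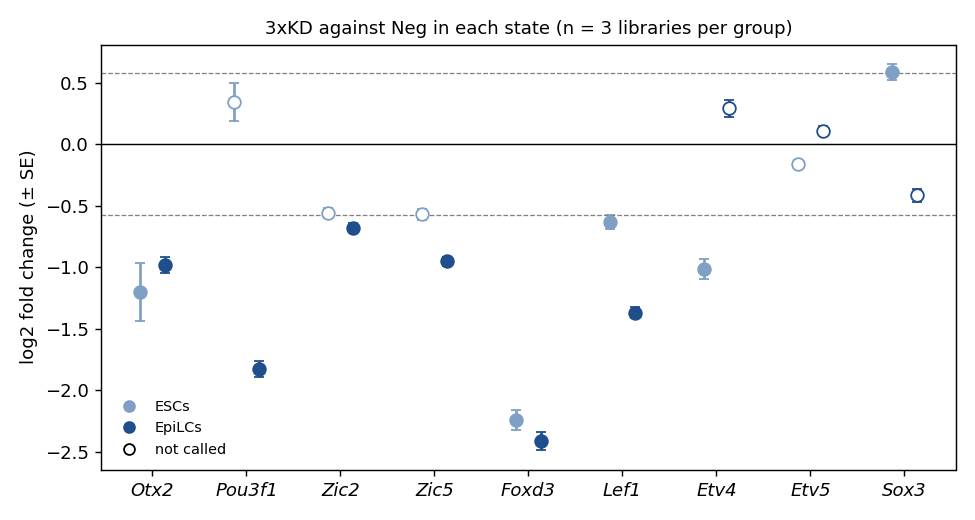
Log2 fold change of 3xKD against Neg (± SE, 3 libraries per group) for each factor in ESCs (light) and EpiLCs (dark). Filled points were called, open points were not, and dashed lines mark 0.58 and -0.58. *Foxd3* is the lowest point in both states, and *Pou3f1*, *Etv4*, *Etv5* and *Sox3* lie on opposite sides of 0 in the 2 states.

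*Otx2* (ENSMUSG00000021848, GRCm39 chr14:48894099-48911276, minus strand) encodes a homeodomain protein that is among the first factors of the formative state. It had 1.51, 1.31 and 1.63 CPM in Neg ESCs and 0.92, 0.61 and 0.39 CPM in 3xKD ESCs. These rest on 6 to 32 counts a library, and the 3xKD values lie below every Neg value. The log2 fold change was -1.20 ± 0.23 (adjusted p = 0.000482). In EpiLCs *Otx2* reached 109.7, 97.5 and 106 CPM in Neg and 55.2, 51.3 and 52.5 CPM in 3xKD libraries, so that the 3xKD mean was 50.7% of the Neg mean. This fall was -0.98 ± 0.07 (adjusted p = 4.69e-09). The rise from ESCs was 6.12 ± 0.11 in Neg and 6.34 ± 0.12 in 3xKD cells: on the log2 scale *Otx2* rose in both lines, from a lower start and to a lower level in 3xKD.

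*Pou3f1* (ENSMUSG00000090125, chr4:124550600-124554448, plus strand) is a gene of 1 exon whose product OCT6 is a POU factor of epiblast and early neural cells. In ESCs only *Otx2* among the 9 factors had a lower mean CPM. The mean of *Pou3f1* was above that of 52.3% of tested genes in Neg and 53.2% in 3xKD ESCs. It had 3.37, 2.75 and 2.7 CPM in Neg and 3.56, 3.78 and 3.66 CPM in 3xKD ESCs (log2 fold change 0.34 ± 0.15, adjusted p = 0.0938, not called). In EpiLCs it stood at 271, 222 and 241 CPM in Neg and at 66.3, 67.1 and 73.5 CPM in 3xKD libraries. The 3xKD mean was 28.2% of the Neg mean, and no other factor but *Foxd3* had a lower share. The fall was -1.83 ± 0.06 (adjusted p = 3.70e-12). *Pou3f1* rose by 6.40 ± 0.10 from ESCs to EpiLCs in Neg and by 4.23 ± 0.09 in 3xKD cells. The difference between the states, -2.17 ± 0.17 (adjusted p = 1.63e-07), was the largest in size among the 9.

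*Zic2* (ENSMUSG00000061524, chr14:122711827-122717264, plus strand) and *Zic5* (ENSMUSG00000041703, chr14:122694190-122703089, minus strand) are neighbours whose starts lie 8.74 kb apart and point away from each other. *Zic2* had 169, 171 and 172 CPM in Neg ESCs and 113, 123 and 112 CPM in 3xKD ESCs. In EpiLCs it had 679, 649 and 655 CPM in Neg and 430.2, 410.0 and 399 CPM in 3xKD libraries. The 3xKD libraries were thus lower in both states by a similar factor, with log2 fold changes of -0.56 ± 0.04 in ESCs, just inside the fold limit and not called, and -0.68 ± 0.04 in EpiLCs (adjusted p = 6.78e-10). *Zic5* had 69.9, 72.7 and 68.4 CPM in Neg ESCs, 49.6, 46.2 and 46.0 CPM in 3xKD ESCs, 332, 319 and 326 CPM in Neg EpiLCs and 172, 171 and 162 CPM in 3xKD EpiLCs. Its log2 fold change of -0.57 ± 0.04 in ESCs was also just inside the limit, while -0.95 ± 0.04 in EpiLCs was called (adjusted p = 1.43e-11). The effect on *Zic5* was larger in EpiLCs by 0.38 ± 0.06 on the log2 scale (adjusted p = 0.000148), a difference that was not called for *Zic2*.

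3 long noncoding RNAs of the *Zic2* and *Zic5* region had at least 1 CPM in a group. *2610035F20Rik*, which overlaps *Zic2* on the opposite strand and starts 1.92 kb from its start, fell with 3xKD in EpiLCs from 6.26 to 2.03 CPM (log2 fold change -1.62). *Gm56769*, 5.63 kb from the *Zic2* start, fell from 26.7 to 14.8 CPM (-0.86). It lies on the strand of *Zic2* and starts at chr14:122717454, shortly after the *Zic2* end at 122717264. The part of reads running on from *Zic2* in its values was not tested. *Gm56762*, which overlaps *Zic5* on the opposite strand, was at 2.53 and 2.80 CPM and was not called, and nor was the pseudogene *Gm18143*. The libraries were made with a directional kit, which keeps the strand of the RNA, but the strand setting of the quantification is not given in the sources used here. Values of overlapping antisense RNAs are therefore uncertain.

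*Foxd3* (ENSMUSG00000067261, chr4:99544536-99546859, plus strand), a gene of 1 exon, was the factor most reduced in 3xKD cells in both states. It had 51.9, 51.5 and 53.4 CPM in Neg ESCs and 12.4, 10.1 and 10.6 CPM in 3xKD ESCs. In EpiLCs it had 90.2, 78.5 and 87.0 CPM in Neg and 15.1, 15.3 and 17.5 CPM in 3xKD libraries. FOXD3 acts on enhancers as naive cells prepare to leave that state, and here the 3xKD means were 21.1% and 18.8% of the Neg means. The log2 fold changes were -2.24 ± 0.08 in ESCs (adjusted p = 3.40e-12) and -2.41 ± 0.07 in EpiLCs (adjusted p = 1.40e-12). Ranked by log2 fold change from the lowest, *Foxd3* was number 73 in ESCs and number 34 in EpiLCs among 15032 genes at 1 CPM or more on average. The step from ESCs to EpiLCs was small beside that: *Foxd3* rose by 0.71 ± 0.07 in Neg cells, and in 3xKD cells the change was 0.53 ± 0.09 and was not called. Every Neg library in either state was above every 3xKD library in either state.

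The 250 bases before the RefSeq start of *Foxd3* are shown because no other member fell as far in both states (GRCm39 chr4:99544286-99544535, plus strand, placed by exact match of the RefSeq promoter of build GRCm38.p6). Capitals mark matches, on either strand, to 8 short motifs searched: the E-box CACGTG, the CRE half-site TGACG, the CCAAT box CCAAT, an ETS core CCGGAA, a TCF/LEF core CTTTGA, a SOX core ACAATG, an OTX core TAATCC and a forkhead core GTAAAC.
Foxd3: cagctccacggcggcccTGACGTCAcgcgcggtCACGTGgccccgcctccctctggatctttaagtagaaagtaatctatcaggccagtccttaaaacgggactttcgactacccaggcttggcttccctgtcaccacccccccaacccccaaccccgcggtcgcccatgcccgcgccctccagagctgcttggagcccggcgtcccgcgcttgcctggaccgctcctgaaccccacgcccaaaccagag
The window holds 1 E-box, 217 bases before the start, and 2 CRE half-sites that overlap on opposite strands. An E-box stood in 6.02% and at least 1 CRE half-site in 17.8% of 32851 windows of the same length before RefSeq starts. How often 2 half-sites overlap as they do here, in TGACGTCA, was not counted. Its GC content was 65.6%, and the median window had 52.4%. A match says only that the letters are there.

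2 noncoding genes near *Foxd3* with at least 1 CPM were not called. *Gm12688*, which overlaps *Foxd3* on the opposite strand, had log2 fold changes of 0.11 in ESCs and -0.42 in EpiLCs, and *Gm57124*, 6.59 kb upstream, had -0.66 and -0.73 with at most 1.36 CPM in a group. Of the other neural crest markers measured, *Tfap2a* was also lower in 3xKD, at 20.7 and 4.72 CPM in ESCs and 2.7 and 1.68 CPM in EpiLCs. *Sox10* was at 4.65 and 4.30 CPM and then at 5.80 and 5.85 CPM, and *Tfap2b* had at most 2 counts in a library. The part of such cells in the *Foxd3* values was not tested. The 3 guides of the 3xKD line, of 19 bases, were compared with every site before NGG within 1 kb of each gene start. The closest site had 7 mismatches at *Foxd3* and 6 to 8 at the 9 factors, and 63.0% of the tested genes had a site with 7 or fewer. *Pou3f1* and *Lef1* had 6, as 23.4% of the tested genes did or fewer. *Pcx*, *Me1* and *Me2* each had a site with 0 mismatches. The Neg guides had 6 mismatches at *Zic5* and *Etv5* (6 or fewer at 15.2% of the tested genes) and 7 at *Foxd3*. Sites farther from the gene start were not searched, and binding of the guides was not tested.

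*Lef1* (ENSMUSG00000027985, chr3:130903919-131018005, plus strand) encodes the HMG-box partner of beta-catenin and is both a carrier and a target of WNT signalling. It had 28.6, 28.6 and 27.9 CPM in Neg ESCs and 19.0, 17.9 and 18.1 CPM in 3xKD ESCs (log2 fold change -0.63 ± 0.06, adjusted p = 1.69e-07). In EpiLCs it had 358, 324 and 345 CPM in Neg and 129, 128 and 140.4 CPM in 3xKD libraries (-1.37 ± 0.04, adjusted p = 1.61e-12). From ESCs, with GSK3 inhibited, to EpiLCs, with tankyrase inhibited, *Lef1* rose by 3.59 ± 0.05 on the log2 scale in Neg and by 2.85 ± 0.05 in 3xKD cells. The 3xKD effect was larger in EpiLCs than in ESCs by 0.74 ± 0.07 (adjusted p = 2.27e-06). With offsets for transcript length the ESC change (-0.63 ± 0.18, adjusted p = 0.0200) and the difference between states (-0.63 ± 0.24, adjusted p = 0.162) kept their direction but, with wider errors, were not called. The estimated split between its 8 transcripts varied between libraries, and the part of that was not tested.

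From ESCs to EpiLCs in Neg cells, 2 of 8 other genes that answer to WNT rose and 4 fell. *Nkd1* and *Lgr5* rose, the latter from only 0.07 to 0.63 CPM, and *Axin2*, *Sp5*, *Notum* and *Cdx1* fell. In 3xKD ESCs 2 were called higher and 3 lower, with *Sp5*, an SP-family repressor, at 19.9 and 3.56 CPM and *Axin2*, a negative regulator of the pathway, at 90.1 and 46.9 CPM in Neg and 3xKD. In 3xKD EpiLCs 0 of the 8 were called, where *Lef1* had its largest fall. Of the other TCF genes, *Tcf7l1* had 101 and 68.9 CPM in Neg and 3xKD EpiLCs, *Tcf7* 82.7 and 103 CPM and *Tcf7l2* 21.5 and 21.6 CPM, and none was called between the lines in either state.

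*Etv4* (ENSMUSG00000017724, chr11:101660568-101676197, minus strand) encodes an ETS factor that is switched on by ERK. It had 27.7, 34.6 and 33.6 CPM in Neg ESCs and 15.3, 17.6 and 14.8 CPM in 3xKD ESCs, a fall of -1.02 ± 0.08 (adjusted p = 4.86e-08). In EpiLCs the order was turned: 62.1, 64.7 and 67.6 CPM in Neg lay below 84.0, 76.9 and 76.9 CPM in 3xKD libraries. That difference of 0.29 ± 0.07 was under the fold limit and was not called. *Etv4* rose by 1.01 ± 0.08 in Neg cells and by 2.32 ± 0.08 in 3xKD cells, so the larger rise was in 3xKD. The difference between the states was 1.31 ± 0.11 (adjusted p = 4.47e-07).

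*Etv5* (ENSMUSG00000013089, chr16:22200052-22259662, minus strand), the paralog of *Etv4*, hardly moved in total counts. It had 631, 645 and 621 CPM in Neg ESCs, 578, 549 and 569 CPM in 3xKD ESCs, 557, 517 and 549 CPM in Neg EpiLCs and 593, 587 and 571 CPM in 3xKD EpiLCs. All 12 libraries lay between 517 and 645 CPM, and none of the 4 comparisons was called. The 3xKD effect was -0.16 ± 0.04 in ESCs and 0.11 ± 0.04 in EpiLCs, a difference of 0.27 ± 0.05 (adjusted p = 0.00107) that was lost with offsets for transcript length (0.09 ± 0.07, adjusted p = 0.524). The 454 genes of chromosome 16 with at least 1 CPM had a median log2 fold change of 0.30 between 3xKD and Neg in both states, while the medians of the chromosomes of the other 8 factors lay between -0.05 and 0.02. *Etv5* was below its chromosome's median in both states. Whether the shift of chromosome 16 comes with the knockdown or with the line cannot be told apart here.

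Behind the constant total, the transcripts of *Etv5* changed. Etv5-201 starts at chr16:22258483 and Etv5-203 at an inner site 2985 bases downstream, chr16:22255498, and each has 13 exons. In Neg ESCs Etv5-203 had 78.1, 112 and 84.0 TPM, the deposited measure that scales reads by transcript length and library size, and Etv5-201 had 20.2, 22.2 and 13.9 TPM. In Neg EpiLCs the order was reversed, with Etv5-203 at 0.77, 0.42 and 0 TPM and Etv5-201 at 101, 108 and 114 TPM. Etv5-203 held 67.3% ± 4.20 (SD, n = 3) of the summed TPM of the gene in Neg ESCs and 0.34% ± 0.34 in Neg EpiLCs, and Etv5-201 held 13.8% ± 2.35 and 86.3% ± 2.16. The same switch was seen in 3xKD cells, where Etv5-203 went from 66.3% ± 3.73 to 1.22% ± 0.44 and Etv5-201 from 13.8% ± 1.42 to 94.5% ± 3.50. These shares are a description with no test. Salmon split single-end reads between models that differ in 217 and 242 exon bases and share the rest, and the coding part of Etv5-203 is annotated as 1584 bases against 1530.

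**Figure D3:**
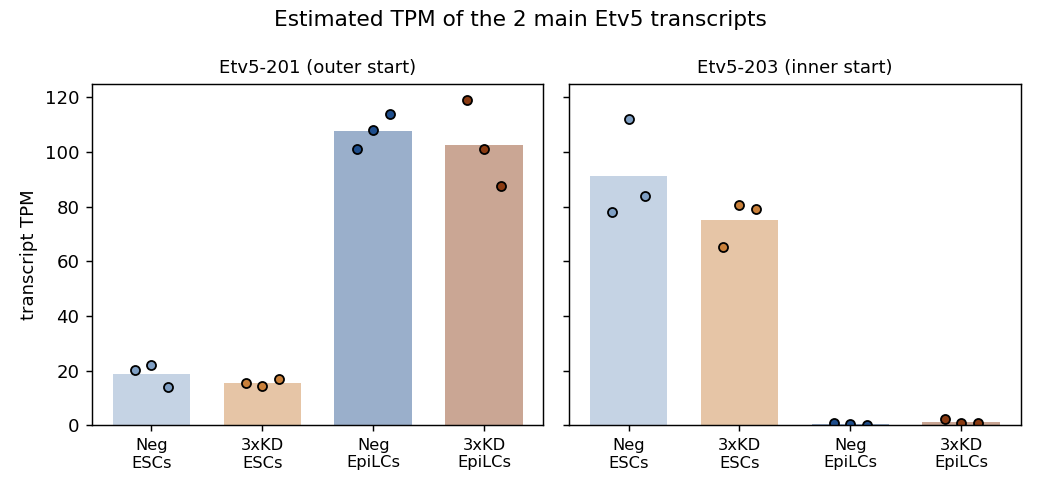
Estimated TPM of Etv5-201 (outer start) and Etv5-203 (inner start) in each group. Bars are group means and points the 3 libraries. Etv5-203 falls from between 65.4 and 112 TPM in ESCs to 2.22 TPM or less in EpiLCs, and Etv5-201 rises from 22.2 TPM or less to 87.6 TPM or more.

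The 250 bases before the outer start are shown, since Etv5-201 had most of the TPM of the gene in EpiLCs (GRCm39 chr16:22258484-22258733, minus strand, read at the annotated start of Etv5-201). Capitals mark the same 8 motifs.
Etv5-201: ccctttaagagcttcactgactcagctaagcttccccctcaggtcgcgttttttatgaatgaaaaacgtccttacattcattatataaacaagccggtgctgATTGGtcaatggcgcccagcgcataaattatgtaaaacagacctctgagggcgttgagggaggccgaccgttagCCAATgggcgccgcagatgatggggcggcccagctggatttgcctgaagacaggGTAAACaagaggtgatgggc
The window holds CCAAT boxes 148 and 74 bases before the start and a forkhead core at 20 bases. A CCAAT box stood in 33.8% and a forkhead core in 6.92% of all windows before RefSeq starts. Its GC content was 51.2%.

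Of 11 other genes that answer to ERK, 9 rose and 1 fell from ESCs to EpiLCs in Neg cells, and 9 rose in 3xKD cells. In 3xKD ESCs 5 were called lower and 1 higher (median -0.73). *Etv1*, the third PEA3 gene, had 24.6 and 10.1 CPM there and 71 and 62.3 CPM in EpiLCs, where it was not called. In 3xKD EpiLCs 3 were called lower and 2 higher (median -0.19). The largest changes were a rise of *Ier3*, an immediate early gene (2.05 ± 0.14), and falls of *Egr1*, an early zinc finger factor (-1.44 ± 0.08), and of *Spry2*, an inhibitor of receptor signalling (-0.80 ± 0.05). *Dusp6*, the phosphatase that acts on ERK, moved as *Etv4* did, with -0.94 in ESCs and 0.62 in EpiLCs.

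*Sox3* (ENSMUSG00000045179, chrX:59934972-59937036, minus strand), a gene of 1 exon, was the only factor called higher in 3xKD cells in either state. It had 10.7, 11.2 and 10.2 CPM in Neg ESCs and 16.6, 15.9 and 15.6 CPM in 3xKD ESCs (log2 fold change 0.59 ± 0.07, adjusted p = 1.69e-06). The change stood just past the fold limit, and the call was lost without the third Neg ESC library (0.54), with library size alone (0.57) and with only the groups compared (0.58). In EpiLCs it had 49.6, 45.5 and 47.7 CPM in Neg and 35.6, 35 and 36.4 CPM in 3xKD libraries. There the 3xKD libraries were the lower ones, at -0.42 ± 0.05, under the fold limit. *Sox3* rose by 2.15 ± 0.06 in Neg and by 1.15 ± 0.06 in 3xKD cells, a difference of -1.0 ± 0.09 (adjusted p = 5.12e-07).

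The other SOXB1 genes differed from *Sox3* in level and change. *Sox1*, an early neural gene, had 65.3 and 21.6 CPM in Neg and 3xKD EpiLCs (-1.60 ± 0.09, adjusted p = 6.35e-10) and was not called in ESCs, at 7.18 and 6.42 CPM. *Sox2*, a core pluripotency factor, had 409.8 and 339 CPM in ESCs and 243 and 218 CPM in EpiLCs, with no call between the lines. The summed level of 7 neural markers was 117 to 129 CPM in Neg and 108 to 112 CPM in 3xKD ESCs, and 134 to 139 CPM in Neg and 70.6 to 73.1 CPM in 3xKD EpiLCs. 3 of the 7 had a mean under 1 CPM in both EpiLC groups, and *Sox1* and *Nes* made up most of the difference. The part of neural cells in the values of *Sox3*, *Zic2* and *Zic5*, which neural cells also express, was not tested.

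**Figure D4:**
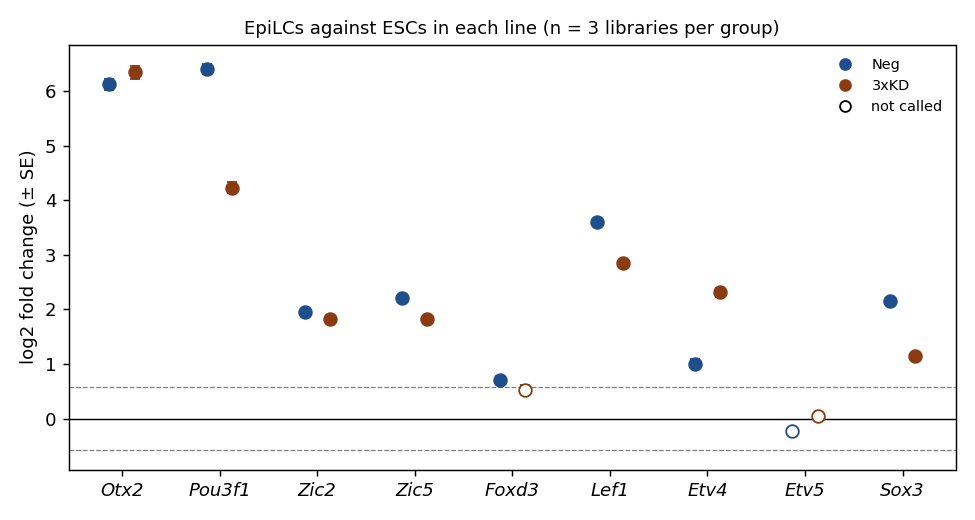
Log2 fold change from ESCs to EpiLCs (± SE, 3 libraries per group) for each factor in Neg (blue) and 3xKD cells (brown). Filled points were called, open points were not, and dashed lines mark 0.58 and -0.58. *Pou3f1*, *Sox3*, *Lef1* and *Zic5* rose less in 3xKD cells and *Etv4* rose more.

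In CPM, the gain from ESCs to EpiLCs in 3xKD cells was 15.0% of the Neg gain for *Foxd3*, 27.0% for *Pou3f1*, 36.4% for *Lef1*, 47.4% for *Zic5*, 50.8% for *Otx2*, 53.2% for *Sox3*, 60.6% for *Zic2* and 193% for *Etv4*. The order differs from that on the log2 scale, since a factor with a lower start in 3xKD cells, such as *Foxd3* or *Otx2*, can rise by a like factor and still gain less.

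Levels of different factors can be compared per transcript length, in TPM. In Neg ESCs *Etv5* was highest at 136 TPM, followed by *Zic2* at 56.3 and *Zic5* at 21.2 TPM. *Etv4* and *Foxd3*, both at 15.8 TPM, could not be ordered, and nor could *Otx2* at 0.51 and *Pou3f1* at 0.50 TPM, below *Lef1* at 5.71 and *Sox3* at 3.72 TPM. In Neg EpiLCs *Zic2* led at 265 TPM. *Zic5* at 130.3 and *Etv5* at 125 TPM overlapped between libraries, as did *Otx2* at 52.1 and *Pou3f1* at 50.8 TPM, and *Sox3* was last at 19.6 TPM. In 3xKD EpiLCs *Foxd3* was last at 5.08 TPM, with *Sox3* at 13 and *Pou3f1* at 12.7 TPM overlapping above it. The level of *Zic5* leans on a short model with no annotated coding part, Zic5-202, which held 60.0% to 65.9% of its TPM by group. *Pou3f1*, *Foxd3* and *Sox3* have 1 transcript each in the files, and the main model of *Otx2* in EpiLCs, Otx2-201, held 46.6% ± 1.96 of its TPM in Neg and 42.6% ± 4.14 in 3xKD libraries.

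Of 20 other formative and primed genes, 17 rose from ESCs to EpiLCs in Neg and 16 in 3xKD cells, with none called lower. In 3xKD EpiLCs 11 of them were called lower and 3 higher (median -0.71), and in 3xKD ESCs 6 lower and 5 higher (median -0.10). The largest falls in EpiLCs were those of *Pim2*, a serine/threonine kinase gene (-1.82 ± 0.05), *Sall2*, a zinc finger factor gene (-1.42 ± 0.05), and *Fgf15* (-1.34 ± 0.12). The 3 that were higher in 3xKD EpiLCs were *Krt18*, *Tdgf1* and *Tead2*. Of 11 naive factors, all 11 fell from ESCs to EpiLCs in both lines. In 3xKD EpiLCs 4 were called higher, led by *Nanog* (1.07 ± 0.04) and *Esrrb* (0.89 ± 0.04), and *Nr0b1* was lower (-0.84 ± 0.06), and in 3xKD ESCs 6 were lower and none higher. Of 4 core factors *Sall4* alone was called between the lines, lower in 3xKD EpiLCs (-0.68 ± 0.04).

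**Figure D5:**
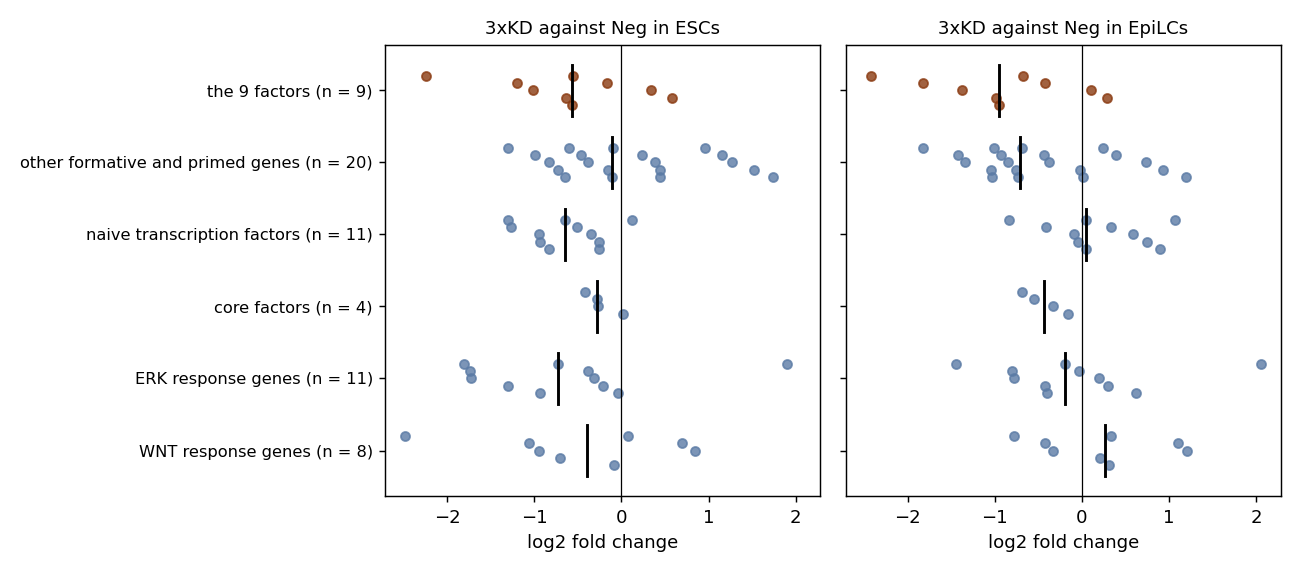
Log2 fold change of 3xKD against Neg in ESCs (left) and EpiLCs (right) for the 9 factors and for 5 lists of related genes. Points are genes, spread vertically for sight, and bars are list medians. The median of the 9 factors is -0.57 in ESCs and -0.95 in EpiLCs, and that of the naive factors is -0.65 and 0.05.

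Of 17 listed paralogs, 1 was called higher in 3xKD ESCs and none in 3xKD EpiLCs, and 13 had at least 1 CPM in a group. *Zic1* rose in 3xKD ESCs from 1.48 to 3.12 CPM. *Otx1*, *Pou3f2*, *Pou3f3*, *Foxd1* and *Foxd2* stayed at or under 7.39 CPM in all groups with no call between the lines. Near the other factors, *Fhl3*, 43.6 kb from *Pou3f1*, rose in 3xKD ESCs (0.65), *Utp11*, 36.8 kb from it, was not called, and *Gm42449* within *Lef1* was at or under 1.61 CPM. No tested gene with 1 CPM started within 50 kb of *Otx2*, *Etv4*, *Etv5* or *Sox3*. The annotated neighbours of *Etv4* (5) and *Etv5* (2) are not in the files, so their levels were not measured.

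By Pearson's r of log2(CPM + 1) over the 12 libraries, which fall into 4 groups and so give high values for many genes, the genes most like each factor among 15023 were as follows. *Otx2* was closest to *Pdzd4*, *Spry4* and *Supt6* (r from 0.997 to 0.998) and *Pou3f1* to *Snrpn*, *Vrtn* and *Crocc2* (0.997 to 0.998). *Zic2* was closest to *Kdm2b* and *Spop*, *Zic5* to *Enc1* and *Tmem131*, and *Lef1* to *Zfhx3*, *Tns3* and *Pim2*, all at 0.997 or above. *Foxd3* was closest to *Ppp1r10*, *Taf2* and *Gm42047*, and *Sox3* to *Foxp1*, *Myrf* and *Skil*. *Etv4* was closest to *Lpar6*, *Rbm41* and *F2rl1* (0.987 to 0.989) and *Etv5* to *Inpp5e*, *Mb21d2* and *Sord* (0.942 to 0.965). Among the factors themselves, *Zic5* and *Lef1* had the highest r, 0.997, and *Foxd3* had no r above 0.581 with another.

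Markers of other cell types gave these summed levels in Neg and 3xKD libraries. In ESCs primitive and visceral endoderm markers had 21.5 to 24.1 and 28.3 to 31.2 CPM, mesoderm and streak markers 27.8 to 29.5 and 27.8 to 32.9 CPM, and trophoblast markers 28.7 to 29.4 and 31.6 to 35 CPM. In EpiLCs they had 22.7 to 27.8 and 18.2 to 19.5 CPM, 20 to 21.4 and 21.3 to 23.1 CPM, and 21.8 to 23.3 and 25.2 to 29 CPM. *Eomes* is in both the mesoderm and the trophoblast list and made up most of both sums. It had 23.6 and 25.9 CPM in ESCs and 19.4 and 20.5 CPM in EpiLCs. Of the trophoblast markers in ESCs, *Cdx2* was called lower in 3xKD (2.86 and 0.50 CPM) and *Krt7* higher (1.04 and 4.77 CPM). The other trophoblast markers were not called there. In 3xKD EpiLCs *Krt7* was called higher (1.28 and 3.49 CPM in Neg and 3xKD) and *Gata3* lower (0.59 and 0.19 CPM). *Gata6* of the endoderm list was called higher in 3xKD ESCs (5.36 and 9.18 CPM) and lower in 3xKD EpiLCs (9.53 and 4.68 CPM). No other tested marker of the endoderm or mesoderm list was called between the lines. The 6 markers of 2-cell-like cells, led by *Zscan4f*, had 416 to 440 and 447 to 453 CPM in ESCs and 374 to 410 and 808 to 864 CPM in EpiLCs. The part of such cells in the lower levels of the 6 factors in 3xKD EpiLCs was not tested.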

How the data were processed

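RNA-seq reads were processed by the authors (Trim Galore 0.6.7, STAR 2.7.9a, Salmon 1.10.1, GRCm39, per the submitters' processing notes), who deposited, for each of the 12 libraries, estimated counts and TPM per transcript, with a table of transcripts and genes. Groups were taken from the sample titles. The members and lists were chosen with earlier results of these data known. The counts were added up by gene and rounded to whole numbers, and genes with 10 or more in total were kept. edgeR 4.0.16 (TMM, quasi-likelihood, 4 groups in one fit, Benjamini-Hochberg over 25446 genes) gave all p-values, with calls made as given in the report. The difference between states had no fold limit. TPM were used as deposited for transcript shares and levels between genes. Positions came from GENCODE vM39 (GRCm39), promoters from RefSeq (5 of the 9 symbols matched; *Pou3f1*, *Zic2*, *Etv4* and *Sox3* did not). Named genes followed a rule: all members; of each list the 3 largest called changes in EpiLCs; paralogs and genes within 50 kb at 1 CPM or more; and the 3 genes most alike. *Dusp6*, *Sp5*, *Axin2* and genes named beside a small count were chosen after their values were seen. Some genes and 1 sequence that this rule covers are not reported here.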

Additional observations from a re-analysis of the deposited data

Results flagged for a closer look

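For 6 of the 9 factors the effect of 3xKD differed between EpiLCs and ESCs by edgeR's test of the difference (adjusted p under 0.01). On the log2 scale, the effect in EpiLCs minus that in ESCs was -2.17 for *Pou3f1*, -1.0 for *Sox3*, -0.74 for *Lef1* and -0.38 for *Zic5*. It was 1.31 for *Etv4* and 0.27 for *Etv5*. With offsets for transcript length neither *Lef1* (-0.63 ± 0.24) nor *Etv5* (0.09 ± 0.07) was called, the first with a wider error and the second with a smaller difference. Groups of 3 libraries were too small to look for single outlying libraries.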

How the results depend on the processing

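Under the alternatives, 221 recomputed counts stayed within 1.5 times the reported one and 7 did not, and 964 log2 fold changes of members kept their direction and their side of the threshold, while 7 passed it, 7 lost it and 3 changed direction. In ESCs, the count of members higher in 3xKD went from 1 to 0 with library size alone and with only the groups compared, and without single libraries it ran from 0 to 1, the 0 coming without the third Neg ESC library. With adjusted p under 0.05 and no fold limit, 7 members were lower in 3xKD ESCs, 2 were higher in 3xKD EpiLCs and 1 was lower in Neg EpiLCs than in Neg ESCs. Offsets for transcript length left 1 member with a higher effect in EpiLCs and turned the uncalled values of *Etv5* to -0.042 for 3xKD in EpiLCs and -0.24 for EpiLCs against ESCs in 3xKD. Without the third 3xKD ESC library the uncalled difference between states of *Otx2* turned to -0.020, in a range up to 0.55 without the first. *Otx2* in 3xKD ESCs was not called with only the groups compared (adjusted p = 0.0130). *Zic2* in 3xKD ESCs was called with length offsets (-0.63) and without the second 3xKD ESC library (-0.60), *Zic5* with library size alone (-0.59), with only the groups compared (-0.58) and without the third Neg ESC library (-0.59), and *Foxd3* in the 3xKD transition with upper-quartile factors (0.61) and without the first 3xKD ESC library (0.64). Replicate numbers did not pair the libraries (correlations of same-numbered deviations from the group means ran from -0.14 to 0.10). With the replicate block, 6 members were lower in 3xKD EpiLCs and 4 in 3xKD ESCs, and no call of a member changed. DESeq2 gave the same calls of members as edgeR. At 6 to 32 counts, the *Otx2* values in ESCs have the widest error.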
